A study of Mus musculus with 2 samples.

Results

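Chromosome 14 carried 644 of the 16249 regions in the authors' list from a ChIP-seq experiment on SF1 in mouse uterus, or 3.96% of the list. These 644 regions are described here along the chromosome, in 1 Mb windows, from a crowded window at 26 to 27 Mb to long stretches that held no region between 80 and 119 Mb. The chromosome was selected on the measured positions of its regions in this same list, so their crowding and its absence are given as a description, with no test. Score and width of a region were not used in that choice. They are set beside the 15397 regions of the other 18 autosomes.

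ChIP-seq (chromatin immunoprecipitation followed by sequencing) recovers DNA fragments bound to a protein with an antibody, here against SF1. The tissue was whole uterus of C57BL6/6J mice aged 8 weeks, whose ovaries had been removed at 6 weeks and which were then rested for 2 weeks to clear the hormones of the ovary. The series' design text speaks of endometrium, the inner lining, while the sample label names the whole organ, which also holds smooth muscle and other layers. The series comprised 1 SF1 library and 1 input library (chromatin sequenced without antibody), both from mice of the same strain, age and surgery. The labels name no transgene and no pooling of animals, and no replicate of either library. No spread between animals can therefore be given for any value, and every comparison below is between parts of 1 region list.

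SF1 (NR5A1) is a nuclear receptor that binds DNA as a single molecule and switches on genes of steroid hormone synthesis, such as Star and Cyp11a1, in the adrenal cortex, testis and ovary. The healthy uterus is not a steroid-producing organ, and SF1 is studied there because it appears in endometriotic tissue. Sites of a transcription factor are usually unevenly spread over a chromosome: they gather at promoters and at enhancers, which often lie in groups around 1 gene, and are few in gene-poor sequence. Which genes lie at the regions of chromosome 14 was not analysed here, because the gene and promoter tables at hand are on GRCm38.p6 and the regions on mm9. No sequence is printed for the same reason.

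Each region has a start, an end and a whole-number score of unnamed kind, so scores are compared only within the list. Taken as a whole, chromosome 14 was unremarkable in score and width. Its regions had a median score of 17, with quartiles of 14 and 22, and the pooled regions of the other autosomes had a median of 17 with quartiles of 13 and 22. Its median width was 2089.5 bp, with quartiles of 1619 and 3131 bp, against 2096 bp, 1641 and 2970 bp elsewhere. Density was 5.65 regions per Mb of span (the length from the first to the last region), which ranked 13 of 19 autosomes, whose other values ran from 4.67 to 11.4. Together the 644 regions covered 1.497% of the span of 114 Mb.

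What set the chromosome's profile apart in rank was unevenness. The coefficient of variation of the count per 1 Mb window was 1.41, the highest of the 19 autosomes, with chromosome 3 close behind at 1.40 and the lowest, chromosome 9, at 0.938. Of 115 windows, 36 held no region (31.3%), against 24.3% of the 2291 windows on the other autosomes. The 8 windows with 20 or more regions were 6.96% of the windows of chromosome 14 and held 226 of its regions, or 35.1%. On the other autosomes such windows made up 8.29% and held 32.4% of the regions. It took 15 windows, 13.0% of those on chromosome 14, to reach 50% of its regions, a lower share than on every other autosome except chromosome 3, at 11.8%. These ranks come with no test, and neighbouring ranks can lie very close, as for chromosomes 14 and 3.

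**Figure D1:**
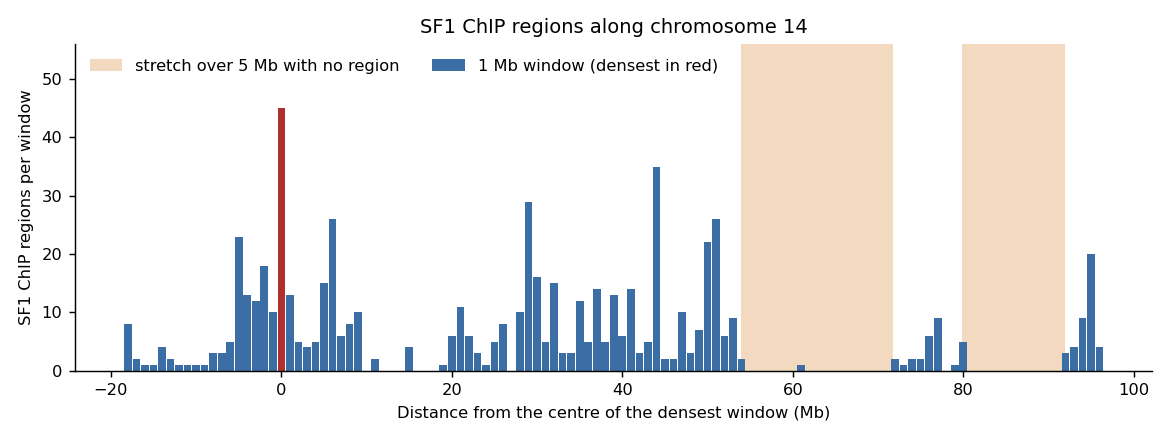
Number of SF1 ChIP regions in each 1 Mb window of chromosome 14 (y axis) by distance in Mb from the centre of the densest window (x axis). The densest window, with 45 regions, is red, and the 3 stretches over 5 Mb with no region, 29.95 Mb together, are shaded; a single region separates the first 2 of them.

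Read from its low-coordinate end, the chromosome alternated between crowded and thin parts. The first region of the list started at 8623333, later than on any other autosome, where first starts ran from 3023035 to 5567170. From there to 21 Mb, 33 regions lay at 2.67 per Mb. Of them, 3 (9.09%) had another region within 10 kb, against 41.1% on the whole chromosome. Low density sets that share in part. A crowded part followed: between 21 and 36 Mb, 213 regions, 33.1% of the chromosome's total, lay at 14.8 per Mb. It held 3 of the windows with 20 or more regions, at 21 to 22 Mb (23 regions), 26 to 27 Mb (45) and 32 to 33 Mb (26). The next 10 Mb, from 36 to 46 Mb, held 7 regions, with scores from 15 to 35. Between 46 and 81 Mb there were 322 regions, 50.0% of the total, at 9.36 per Mb, with crowded windows at 55 to 56 Mb (29 regions), 70 to 71 Mb (35), 76 to 77 Mb (22) and 77 to 78 Mb (26). After the last empty stretch, 40 regions lay at 9.83 per Mb, and 20 of them fell in the window at 121 to 122 Mb.

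The 45 regions at 26 to 27 Mb occupied only part of that window. They ran from chr14:26011520 to 26692249, an extent of 681 kb, at 66.1 regions per Mb of that extent, and covered 32.7% of it. The region before the first of them, chr14:25939827-25946421, had a score of 51 and lay 65.1 kb away. Beyond the last one, no region was listed for 484 kb. Within the window, 31 of the 44 gaps between neighbours were under 10 kb, the median gap was 4432 bp and the longest was 85162 bp. Of the 45 regions, 40 had a neighbour within 10 kb (88.9%), against 225 of the other 599 on the chromosome (37.6%), a difference that follows in part from choosing the window by its count.

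Regions of this window were also wide. Their median width was 4170 bp (95% interval 3186 to 5601), against 2030 bp (1946 to 2140) for the rest of chromosome 14. These intervals are exact binomial ones for a median. They treat regions as independent, which neighbours are not, and cover no animal-to-animal spread. A width over 5 kb was found for 19 of the 45 (42.2%), while all of chromosome 14 had 51 such regions. The share was 5.34% in the rest of the chromosome and 7.09% on the other autosomes. The window's median score was 20 (17 to 24), against 17 (16 to 17) elsewhere on the chromosome, and 22 of its regions scored under 20. Since wider regions tended to score higher, widths were also compared at like scores. At scores of 15 to 19, 12 regions of the window had a median width of 3632.5 bp and 182 others on the chromosome 2113 bp. At scores of 20 to 29 the medians were 5601 bp over 13 regions and 2347 bp over 153. At 30 or more they were 7918.5 bp over 10 and 3269 bp over 58. The difference was smallest at scores under 15, with 2215 bp over 10 regions and 1640 bp over 206. In all 4 score classes, the window's regions were thus the wider ones by median.

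The highest score of chromosome 14 lay in this window. Region chr14:26403247-26412471 was 9224 bp wide and scored 92. A second, chr14:26156798-26168065, was 11267 bp wide and scored 79. The third highest in the window was its last region, chr14:26684486-26692249, with a width of 7763 bp and a score of 59. These high scores were spread over the occupied extent, and the nearest neighbours of all 3 regions scored much lower, at 15, 37 and 13. The one beside the second was chr14:26170608-26181170, which was 10562 bp wide and scored 37. The other seven of the chromosome's 10 highest scores lay outside the window.

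The largest group of regions less than 10 kb apart, 13 in number, spanned chr14:26275513-26388282 and filled 73.5% of those 112769 bp. None of its members was among the high scores, which ran from 11 to 35 with a median of 22. It opened with chr14:26275513-26281783 (score 35) and chr14:26282012-26292966, the widest of the group at 10954 bp (score 28). The following 4 started at 26295610 (score 15), 26301868 (score 23), 26313148 (score 11) and 26321281 (score 22), the last being 9716 bp wide. A further 4 started at 26332063 (score 21), 26342171 (score 13), 26344365 (score 13) and 26351202 (score 25). The group closed with chr14:26363697-26371771 (score 31), chr14:26371841-26381114 (score 32) and chr14:26384112-26388282 (score 20). The scores above 25 thus lay near the ends of the group. Its median width was 6089 bp. Of its 12 gaps, 4 were under 250 bp, the shortest being 70 bp, and joining regions less than 1 kb apart left 9. The region with the score of 92 began 14965 bp after the group ended.

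**Figure D2:**
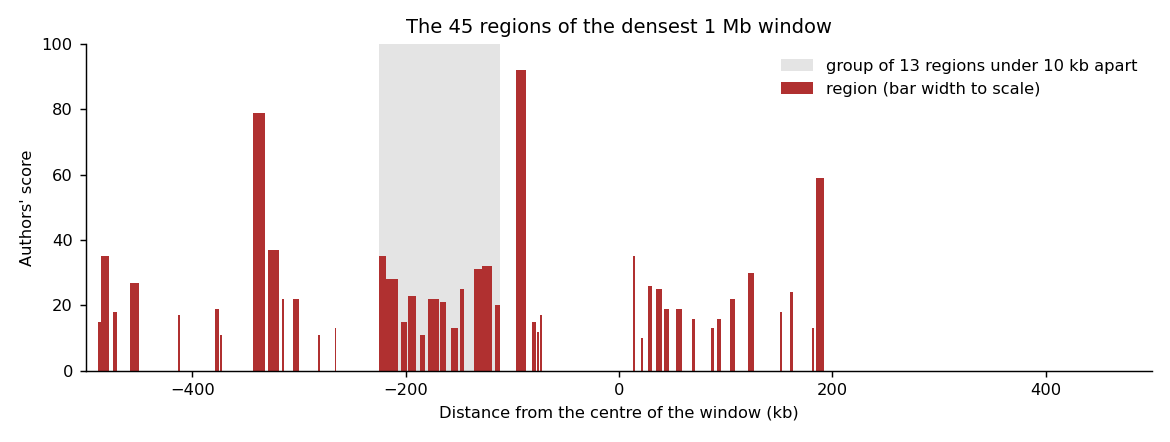
The 45 regions of the window at 26 to 27 Mb, drawn as bars whose width is the region's width and whose height is the authors' score, by distance in kb from the window's centre. The scores of 92, 79 and 59 stand outside the shaded group of 13 regions, whose scores reached 35; the right part of the window is empty.

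A second group in the same window, chr14:26512676-26571548, held 7 regions with scores from 10 to 35 and a median width of 3793 bp. The only other group of 5 or more on chromosome 14 also held 7 regions, at chr14:70552227-70611020. It contained the widest region of the chromosome, chr14:70593810-70611020, of 17210 bp with a score of 38, while its other six scored from 13 to 28. With 3 such groups, chromosome 14 ranked 17 of 19 autosomes by their number, although its largest group was the second largest on any autosome, after one of 16 regions on chromosome 12. Most of its 103 groups were small: 70 were pairs, 22 held 3 regions and 8 held 4.

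Against the densest windows of the other autosomes, 19 windows because chromosome 1 had a tie, the window at 26 to 27 Mb had more regions (45 against 26 to 44), wider ones (median width 4170 bp against 2159 to 3746.5) and more covered sequence (22.3% against 6.94 to 16.6%). Its median score of 20 was above the range of 15 to 19 there. Its median distance to the nearest region, 2.54 kb, was inside their range of 1.54 to 15.7 kb. Among all 198 autosomal windows with 20 or more regions it ranked 1 for covered sequence and for median width. It ranked 14 for median score and 6 for highest score, so its position was less extreme in score. A shorter median distance to the nearest region was found in 13 of the 198 windows. For covered sequence, the next was a window at 98 Mb of chromosome 11 with 17.1%. Covered sequence depends in part on the count, by which the window was chosen, so its rank is a description only. The ranks for covered sequence, width and score were taken only with windows counted from position 0.

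The rank by count depended on where windows begin. With windows shifted by 500 kb, the same regions were divided between 25.5 to 26.5 Mb (35 regions) and 26.5 to 27.5 Mb (22 regions), and the densest window of chromosome 14 was then at 76.5 to 77.5 Mb with 36. Over 10 starting offsets in steps of 100 kb, the densest window began between 25.6 and 26.2 Mb in 7, and chromosome 14 ranked 1 among autosomes by its densest window in 3. With a 1 Mb window placed freely, the most it could hold on chromosome 14 was 49 regions, equal to chromosome 8 and below the 53 on chromosome 12. The coefficient of variation ranked 1 in 3 offsets and 2 in the other seven.

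The other 7 windows with 20 or more regions had narrower and less tightly spaced regions than the densest one. Their median widths ran from 2048 to 2737 bp, and their median distances to the nearest region from 3.29 to 12.6 kb, against 2.54 kb at 26 to 27 Mb. At 70 to 71 Mb, 35 regions had a median width of 2369 bp and a highest score of 38. At 55 to 56 Mb, 29 regions had a median width of 2333 bp, and a pair of them scored 54, chr14:55221413-55225494 and chr14:55515168-55517994. The window at 32 to 33 Mb held the third highest score of the chromosome, 72, in a region of 5315 bp (chr14:32205338-32210653), and a region with a score of 55 at its far end (chr14:32897288-32900570). At 77 to 78 Mb, chr14:77092540-77101149 scored 71 and chr14:77019748-77028886 scored 58. The windows at 21 to 22, 76 to 77 and 121 to 122 Mb had highest scores of 39, 36 and 46, all below 50. The last of these just met the minimum of 20 regions, and the fullest window under it, at 24 to 25 Mb, held 18.

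Between 80 and 119 Mb the picture was the opposite. These 39 windows held 34 regions, and 28 of them were empty, while the other 76 windows of the chromosome held 610 regions and 8 were empty. No window between 80 and 119 Mb reached 10 regions, its fullest holding 9. The first stretch with no region ran from 80408162 to 87814881 (7.41 Mb), the second from 87816956 to 98267482 (10.5 Mb) and the third from 106341388 to 118437877 (12.1 Mb). They took up 29.95 Mb together, 26.3% of the chromosome's span. The longest stretch that fell short of 5 Mb was in the thin part before 46 Mb, from 41822069 to 45696095 (3.87 Mb). An empty stretch says that the authors listed nothing there; how much of it reads could be aligned to is not known here.

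The first and second of these stretches were parted by 1 region, chr14:87814881-87816956, 2075 bp wide with a score of 27. That score was above the chromosome's upper quartile of 22. The region before the first stretch (chr14:80406775-80408162) scored 18, and the one after the second (chr14:98267482-98268342) was 860 bp wide and scored 15. The third stretch lay between chr14:106339943-106341388, with a score of 25, and chr14:118437877-118439205, with a score of 14. The 5 regions at the edges thus had scores from 14 to 27 and widths from 860 to 2075 bp, with a median of 1387 bp. On the other autosomes, 42 regions flanked 21 stretches over 5 Mb, with a median score of 13.5 (95% interval 13 to 16) and a median width of 1480 bp (1337 to 1695). The flanks on chromosome 14 are too few for an interval.

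An island of 28 regions lay between the second and the third stretch, from 98267482 to 106341388. They were thinly set, at 3.47 per Mb, with a median width of 1899 bp and a widest region of 4025 bp. A pair of them had some of the highest scores of the chromosome. Region chr14:101880878-101883838 was 2960 bp wide and scored 60, which ranked 5 of 644, and its nearest neighbour lay 123 kb away. Region chr14:101369374-101371232 was 1858 bp wide and scored 57, with its nearest neighbour 510 kb away. No other region from 80 to 119 Mb scored above 29. The remaining 26 regions of the island scored between 9 and 29. The island's fullest windows were at 103 to 104 Mb, with 9 regions, and at 102 to 103 Mb, with 6. Toward the third stretch, 5 regions at 106 to 107 Mb scored from 16 to 26.

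Stretches were counted only between 2 listed regions. The sequence before the first region, which started at 8623333 on chromosome 14, and that after the last were left out. Counted so, chromosome 14 held 3 of the 24 autosomal stretches over 5 Mb and 18.2% of their summed length. They ranked 2, 3 and 5 by length among those 24, and the longest was on chromosome 15 (12.2 Mb). The share of span in such stretches, 26.3%, was the highest of the 19 autosomes. It was 18.4% on chromosome 15, 5.60% in the median of the other 18 and 0 on 6 of them. With such stretches left out of every span, the density of chromosome 14 rose to 7.67 regions per Mb, and its rank moved from 13 to 8 of 19. Its share of windows without a region, 31.3%, ranked 3.

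**Figure D3:**
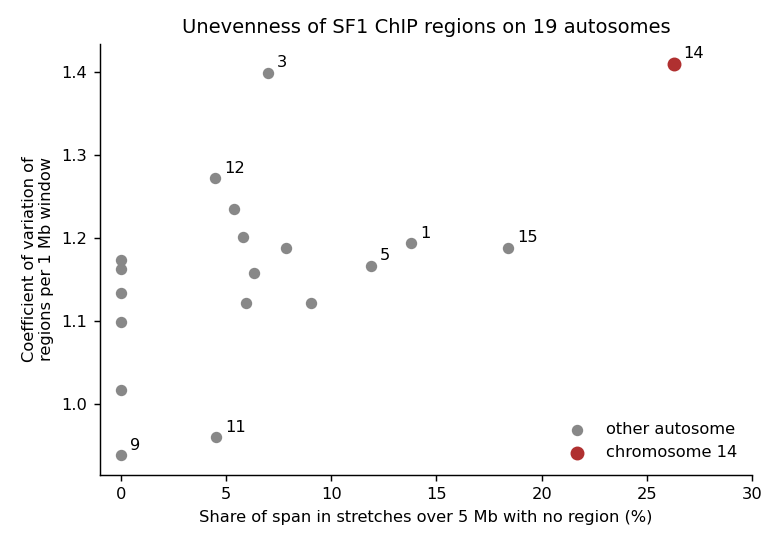
Share of each autosome's span in stretches over 5 Mb with no region (x axis, percent) and coefficient of variation of regions per 1 Mb window (y axis, no unit), 1 point for each of the 19 autosomes. Chromosome 14 is at the upper right, at 26.3% and 1.41, with chromosome 15 at 18.4% and chromosome 3 at 1.40.

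Dense and sparse parts differed in width and spacing more than in score. In windows with 10 or more regions, 432 regions of chromosome 14 had a median width of 2230.5 bp (95% interval 2140 to 2333). In windows with 1 to 3 regions, 53 regions had a median of 1631 bp (1484 to 1839), a difference of 599.5 bp. The intervals did not overlap, but they treat regions as independent, which neighbours are not. Adjacent regions less than 10 kb apart had correlated widths (Spearman correlation 0.293), so the intervals may be too narrow. Median scores were 17 (16 to 18) and 16 (15 to 20), whose intervals did overlap. The nearest region was 9.26 kb away in the median of the dense windows and 208 kb away in the sparse ones, a contrast that the window counts set in large part. The dense regions were wider on all 19 autosomes, by 285 to 840.5 bp on the other 18. The score difference was above 0 on 14 autosomes and 0 on 5.

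Going up through the classes of window density, the median width on chromosome 14 was 1631 bp at 1 to 3 regions, 1966 bp at 4 to 9, 2005 bp at 10 to 19 and 2527 bp at 20 or more. The other autosomes gave 1702, 1862, 2106.5 and 2481 bp. In the fullest class, the interval of chromosome 14 (2262 to 2743) held the value of the other autosomes. Without the window at 26 to 27 Mb, the fullest class on chromosome 14 had 181 regions and a median of 2307 bp (2149 to 2561). None of the 53 regions in the sparse class was wider than 5 kb, and a count of 0 among 53 allows a share of up to 5.66% (3 counts of the total) or 6.72% (exact Clopper-Pearson upper bound), against 16.4% (11.8 to 21.9%) of the 226 in the fullest class. Without the window at 26 to 27 Mb, the share in the fullest class was 9.94% (6.00 to 15.3%), or 18 of 181. That interval overlapped the bound of 6.72% for the sparse class. In sparse windows, the median distance to the nearest region was 208 kb (106 to 284) on chromosome 14 and 131 kb (113 to 154) on the other autosomes, and those intervals overlapped.

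**Figure D4:**
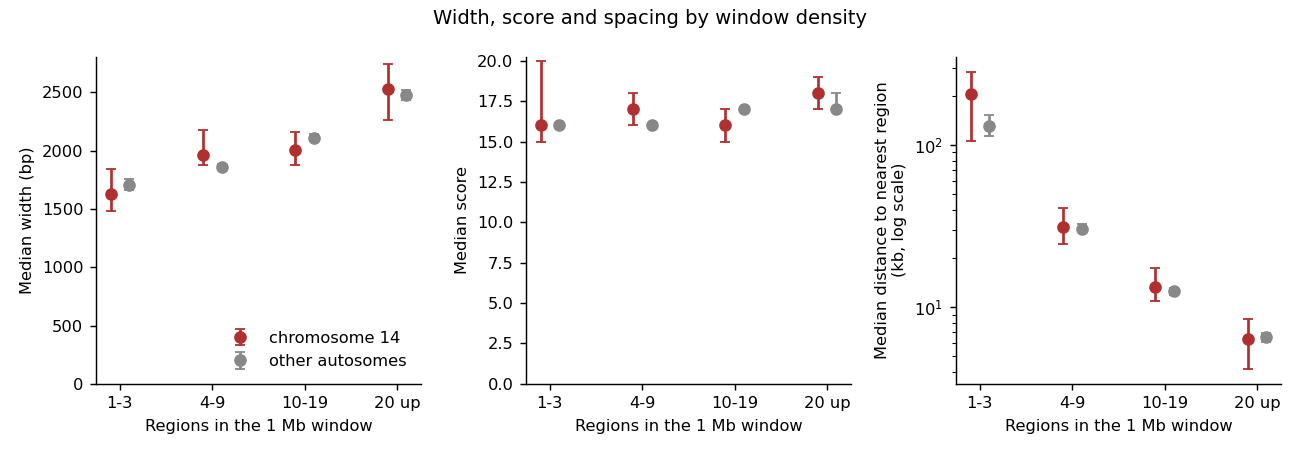
Median width (bp), median score and median distance to the nearest region (kb, log scale) of regions in 1 Mb windows with 1 to 3, 4 to 9, 10 to 19 and 20 or more regions, for chromosome 14 (red) and the other autosomes (grey). Bars are exact binomial 95% intervals of the median over regions; width goes from 1631 to 2527 bp on chromosome 14, while median scores stay between 16 and 18.

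High scores were found in dense and in sparse parts. On chromosome 14, 16 regions scored 50 or more, 2.48% (exact 95% interval 1.43 to 4.003%), against 1.94% of the regions on the other autosomes. Of these 16, 14 lay in windows with 10 or more regions, which held 432 of the 644 regions (67.1%), and 10 had a neighbour within 10 kb, as did 265 of the 644 (41.1%). The pair at 101 Mb lay in a window with no other region. Those outside the windows with 20 or more regions also included chr14:25939827-25946421 (score 51), just before the densest window, chr14:65948762-65952537 (score 58), chr14:63782282-63786530 (score 57), chr14:58904187-58906495 (score 52) and chr14:67717272-67721169 (score 50). In windows with 10 or more regions, 3.24% (1.78 to 5.38%) scored 50 or more. In those with 1 to 3 regions 2 of 53 did, 3.77% (0.460 to 13.0%), and these were the pair at 101 Mb. The shares in dense and sparse windows were thus not told apart. In the sparse windows of the other autosomes, 17 of 1009 regions did, 1.68% (0.984 to 2.68%), which lies within the interval of chromosome 14. The class between, with 4 to 9 regions per window, had 0 of 159 such regions on chromosome 14 (upper bound 2.29%). On the other autosomes that class had 1.27%.

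By its near neighbours, chromosome 14 did not stand out. Of its regions, 265 had another within 10 kb, 41.1% (37.3 to 45.1%), against 43.3% on the other autosomes, and 78 lay over 100 kb from any other, 12.1% (9.69 to 14.9%), against 10.9% elsewhere. Widths over 10 kb were found for 5 regions, 0.776% (0.253 to 1.80%), against 0.838% elsewhere. Of these 5, 3 were in the window at 26 to 27 Mb (chr14:26156798-26168065, chr14:26170608-26181170 and chr14:26282012-26292966). The other two were the 17210 bp region at 70 Mb and chr14:22800337-22811804, of 11467 bp with a score of 24. Across the 644 regions, which share a library and are not replicates, score and width had a Spearman correlation of 0.507. The other autosomes ranged from 0.419 to 0.513. Inside the densest window it was 0.703 over 45 regions, and it was 0.226 over the 28 of the island between the empty stretches. Widths ran from 1527 to 11267 bp in the window and only from 860 to 4025 bp in the island. The difference between these correlations was not tested.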

How the data were processed

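The members and lists were chosen with earlier results of these data known. Per the submitters' processing notes, reads (50 nt, single end, per the labels' protocols) were aligned with BWA to mm9; not given in the sources used here: version, region caller, threshold and use of the input. As deposited, the list has 5 columns without a header: chromosome, start, end, name and a whole number taken as the authors' score. Coordinates are printed as deposited, on mm9. Read depth is unknown, and no read file was used.

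Regions were assigned by midpoint to 1 Mb windows counted from position 0, over the windows touched by each chromosome's span. Windows with 10 or more regions were called dense and those with 1 to 3 sparse. Gaps were taken edge to edge. The text names the 10 highest scores, regions over 10 kb wide, groups of 5 or more regions less than 10 kb apart, and stretches over 5 Mb with their flanks. Of the other regions between those stretches, only those among the 10 highest scores are named. The remaining regions named were chosen after their values were seen. Intervals for shares are exact Clopper-Pearson ones, and those for medians exact binomial ones. Both cover counts only and treat regions as independent, which neighbours are not. Alternatives were higher minimum scores, merging, other distances and other windows. Code was tested on simulated regions. Tools were Python 3.11.15, numpy 2.4.6, pandas 2.3.3, scipy 1.17.1 and matplotlib 3.10.9.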

Additional observations from a re-analysis of the deposited data

How the results depend on the processing

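No paired analysis was possible because each arm is 1 library, and no replicate could be left out. Of 37 values recomputed under alternatives, 22 stayed within the bounds set for them and 15 did not. The bounds were 1.5 times for counts, the exact interval for shares, and no change at all for the length of the stretches. For differences between medians they joined opposite ends of the 2 intervals, giving -4 to 3 for score and 301 to 849 bp for width. Of the 37, 0 changed direction, but counts, lengths and shares cannot do so. The window counts also largely set the direction of the distance difference. In the top 50% by score, the score difference fell from 1 to 0, which lay within its bounds. The top 50% of the list by score (17 or more) left 333 regions on chromosome 14, 30.9 Mb in stretches over 5 Mb, 27.6% of regions with a neighbour within 10 kb and a dense minus sparse width difference of 932.5 bp. The top 10% (31 or more) left 64 regions, 9 in the densest window, 77.6 Mb in such stretches, 71.9% of windows empty and 6.25% with a near neighbour; no window was dense there, so the 3 differences between dense and sparse windows could not be computed. Both cuts remove regions by construction. Merging regions under 1 kb apart gave 33.9% with a near neighbour. That share was 28.1% at 5 kb and 61.0% at 25 kb. Stretches over 3 Mb summed to 37.5 Mb and those over 10 Mb to 22.5 Mb. Counting windows as dense from 20 regions gave a width difference of 896 bp. The freely placed window and the omission of the window at 26 to 27 Mb, which left a width difference of 525 bp, were chosen after seeing the data. The share of span in stretches over 5 Mb ranked 1 of 19 autosomes in the full list, the top 50% and the merged list, and 2 in the top 10%, where chromosome 3 reached 72.0%. In the merged list the densest window held 37 regions and ranked 3. The coefficient of variation of the window counts ranked 1 in the top 50%. It ranked 2, below chromosome 3, in the top 10% and in the merged list.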

Other observations

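Neighbours on chromosome 14 had weakly correlated widths and uncorrelated scores. Over 162 pairs of adjacent regions less than 10 kb apart, the Spearman correlation of their widths was 0.293 and that of their scores -0.0142. On the other 18 autosomes the correlation of widths ran from 0.0326 to 0.306, with 1 of them above chromosome 14, and that of scores from -0.145 to 0.129. Pairs share regions with each other, so these values are descriptions.

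The thin part between 36 and 46 Mb held 7 regions in 3 places. A pair at 37 Mb, chr14:37705083-37707031 and chr14:37780840-37782870, scored 23 and 15. At 41 Mb, 4 regions between 41502638 and 41822069 scored 28, 23, 19 and 17. A single region at 45 Mb, chr14:45696095-45698052, scored 35, which ranked 44 of 644, with its nearest neighbour 325 kb away.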
